A study of Saccharomyces cerevisiae with 18 samples.

Results

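The experiment with p-Nitrophenol took up 6 of the 18 scans of the series, which are 3 of 9 two-colour arrays, because each array was scanned once at high and once at low laser power. The 6 scans were chosen by their titles, and both scans of an array were averaged, so that n = 3 arrays throughout. The tested cells of budding yeast, Saccharomyces cerevisiae strain S288C, had been exposed for 2 h to 1.5 mM p-Nitrophenol, and the other arrays held cells exposed for 2 h to 5 mM m-Nitrophenol or 3 mM o-Nitrophenol, 3 arrays each. All cells grew at 25 °C in rich glucose medium (YPD), and the chemical was added to exponentially growing cultures at an optical density of 1. The series states that the 3 hybridisations of a chemical came from independent biological samples. On every array, mRNA of exposed cells (Cy5) was set against mRNA of cells taken before treatment (Cy3), and it is not given whether arrays shared that RNA.

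The values were log2 ratios, and a positive value was read as higher in exposed cells. This direction is likely rather than certain: it rests on the dyes and channel order in the labels, since no source used here states which channel is on top. With the channels the other way round, every sign and every call of higher or lower would turn. No untreated culture kept for the same 2 h and no dye swap were analysed here, so growth for 2 h, the dyes and the chemical cannot be told apart. A ratio in a bulk culture also cannot tell fewer cells with a transcript from less of it per cell. Ratios carry no levels, so the strain label could not be checked against marker genes.

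Nitrophenols are phenols that carry a nitro group, and the isomers differ in where on the ring it sits. Yeast meets many aromatic chemicals with the pleiotropic drug resistance network, in which the transcription factors Pdr1 and Pdr3 switch on membrane pumps and lipid-modifying proteins, and with reductases and glutathione-linked enzymes that change reactive groups. Damaged proteins are handled by chaperones and the proteasome, while many stresses switch on a common set of protective genes through Msn2 and Msn4. When growth slows, genes for ribosomes, nucleotides and the cell wall are often lowered.

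The test covered 5096 of the 5365 named genes, those measured on 2 or more arrays with every isomer, and 4237 of them had values from all 3 p-Nitrophenol arrays. After p-Nitrophenol, 661 genes had risen and 606 had fallen at an adjusted p under 0.05 (limma, Benjamini-Hochberg over all genes tested), which is 13% and 11.9% of those tested. The change was at least 2-fold for 570 of the higher and 563 of the lower genes, and at least 8-fold for 15 and 69. Among genes measured on 3 arrays, 585 of 590 higher and 522 of 524 lower genes had 1 sign on all of them, and 214 and 298 passed 2-fold on each array. The median over all genes tested was 0.10, and the median 95% interval reached 0.78 to either side of a gene's mean.

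Array 1 stood apart from arrays 2 and 3. Across genes, which are not independent replicates, its log2 ratios correlated with those of arrays 2 and 3 at 0.507 and 0.577, while arrays 2 and 3 correlated at 0.86. It correlated at 0.754 with the third m-Nitrophenol array. It measured 4369 genes, against 5247 and 5252 on arrays 2 and 3, and for 1022 genes its sign was opposite to that of both. Without array 1, 484 genes were higher and 479 lower, of which 388 and 410 were also called with it. Without array 2 the counts were 207 and 283, and without array 3 they were 231 and 276. Only 138 higher and 221 lower genes passed the test with all 3 arrays and without each of them in turn. The 3 values of a gene below stand in the order of arrays 1, 2 and 3. Counts "without each array" stand in the same order, and a gene called higher or lower also passed without each array that could be left out, unless an adjusted p without an array follows it.

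**Figure D1:**
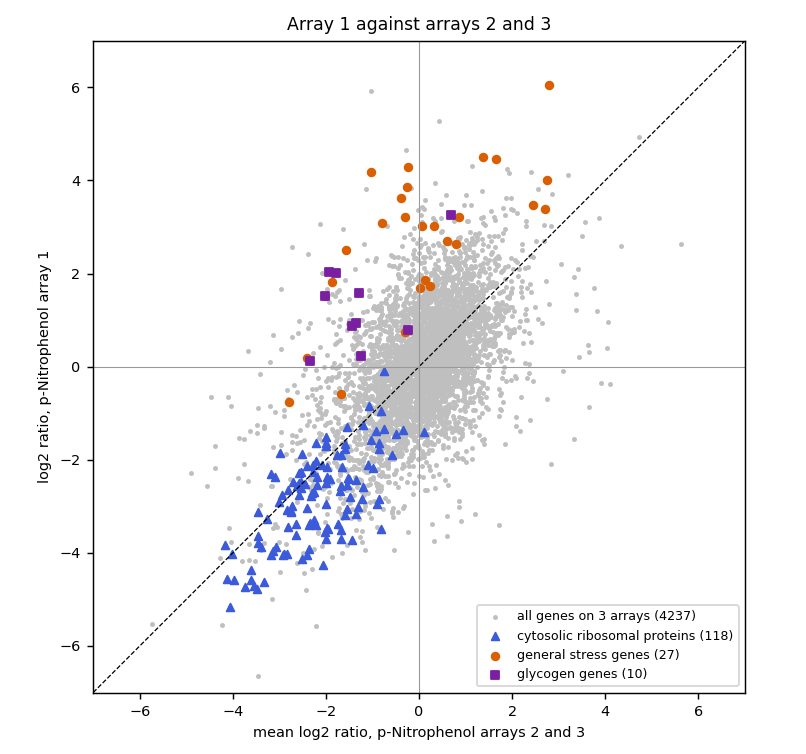
Log2 ratio over before treatment on p-Nitrophenol array 1 (vertical) against the mean of arrays 2 and 3 (horizontal) for 4237 genes measured on all 3; the dashed line marks equal values. The 118 cytosolic ribosomal protein genes (triangles) lie below 0 on array 1, while the 27 general stress genes (circles) and 10 glycogen genes (squares) lie mostly above the line.

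The genes with the largest rises included genes of drug resistance and of the reduction of carbonyl groups. CIS1, named for its role in tolerance of the mycotoxin citrinin, had log2 ratios of 4.93, 5.36 and 4.09. Its mean was 4.80 ± 0.80 (SE, n = 3 arrays for the mean, adjusted p = 0.00307). Each SE and p-value here and below comes from the fit to the arrays of all 3 isomers. It does not measure the spread of the p-Nitrophenol arrays alone, which for CIS1 was an SD of 0.645. PDR5, the main drug efflux pump of the plasma membrane, had 3.20, 3.78 and 3.95, a mean of 3.64 ± 0.40 (SE; adjusted p = 0.000639). RSB1, which moves sphingoid bases out of the membrane, had 3.13, 2.43 and 2.18, a mean of 2.58 ± 0.38. All 3 arrays lay close together for these genes. RTA1, a relative of RSB1, averaged 2.14 ± 0.32, and ICT1, a lysophosphatidic acid acyltransferase, averaged 1.53 ± 0.26. PDR16, a phosphatidylinositol transfer protein, had 1.19, 3.81 and 3.85 (adjusted p = 0.00982), with array 1 the low one, and missed the threshold without array 2 or 3 (adjusted p = 0.0644 and 0.0634).

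Of the 12 other known targets of Pdr1 and Pdr3, 7 were higher and none lower (7, 5 and 5 higher without each array), with a median of 1.43. This is 58.3% of the list, beside 13% of all genes tested. Of 20 multidrug pumps, 3, or 15%, were higher (5, 1 and 1 without each array) and 1, or 5%, lower, with a median of -0.05. The shares of all genes tested were 13% and 11.9%. The higher pumps were PDR5, PDR10 and ATR1, and the lower one was QDR2. The pump ATR1 lost its call without array 2 or 3 (adjusted p = 0.117 and 0.205), as did QDR2 (0.166 and 0.094). YOR1, an ABC pump for oligomycin, had -0.86, 4.0 and 3.31, and SNQ2, an ABC pump for 4-nitroquinoline oxide, had -1.55, 3.48 and 3.17. Array 1 was negative for both pumps and arrays 2 and 3 high. They are named here after their values were seen. With all arrays they did not pass (adjusted p = 0.0554 for YOR1 and 0.139 for SNQ2), and without array 1 both did, at 0.00184 and 0.00257. Among 7 regulators of drug resistance only CAD1, a transcription factor of the Yap family, was higher, at 2.30, 1.15 and 0.85, and it missed the threshold without array 1 or 2 (adjusted p = 0.0938 and 0.0644). PDR1 itself had -0.20, 0.54 and 0.57 (adjusted p = 0.631).

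Reductases came next. GRE2, a methylglyoxal reductase that also reduces other carbonyls and is counted with the Pdr targets too, had 2.64, 6.44 and 4.81, a mean of 4.63 ± 0.90 (SE; adjusted p = 0.00667). ARI1, an NADPH-dependent aldehyde reductase, had 3.03, 3.18 and 2.50 (mean 2.90 ± 0.38; adjusted p = 0.00135). ZTA1, an NADPH quinone reductase, had 2.30, 2.36 and 1.77 (mean 2.15 ± 0.27). GRE2 spread over more than 3 log2 units, and the other genes over less than 1. LOT6, another quinone reductase, had 1.52 and 1.35 on the 2 arrays that measured it. GCY1, an aldo-keto reductase, had 4.16, 2.21 and 1.65 and lost its call without array 1 or 2 (adjusted p = 0.132 and 0.066). Of the 14 carbonyl and nitro reductases 6 were higher (5, 3 and 5 without each array) and 1 lower, with a median of 1.04.

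The reductase that fell was YHB1, the flavohaemoglobin that detoxifies nitric oxide, at -2.09, -4.24 and -3.28 (mean -3.20 ± 0.44; adjusted p = 0.00168). Its 3 arrays all lay below -2. The old yellow enzymes, flavin-dependent NADPH reductases, were less settled: OYE3 had 2.09, 1.20 and 0.56 (adjusted p = 0.0278, but 0.122 and 0.0965 without array 1 or 2), and OYE2 had 0.07, 1.82 and 2.89 (adjusted p = 0.0578).

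Of 6 aryl-alcohol dehydrogenase genes 4 were higher (4, 2 and 1 without each array) and the median was 1.57. AAD4 led with 1.55, 3.60 and 3.16 (mean 2.77 ± 0.49; adjusted p = 0.00545). AAD6 had -0.08, 3.24 and 2.93 and did not pass (adjusted p = 0.0571). Genes of this family are near copies of each other, and their signals on an array may not be fully separate. None of 6 aldehyde dehydrogenase genes passed.

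**Figure D2:**
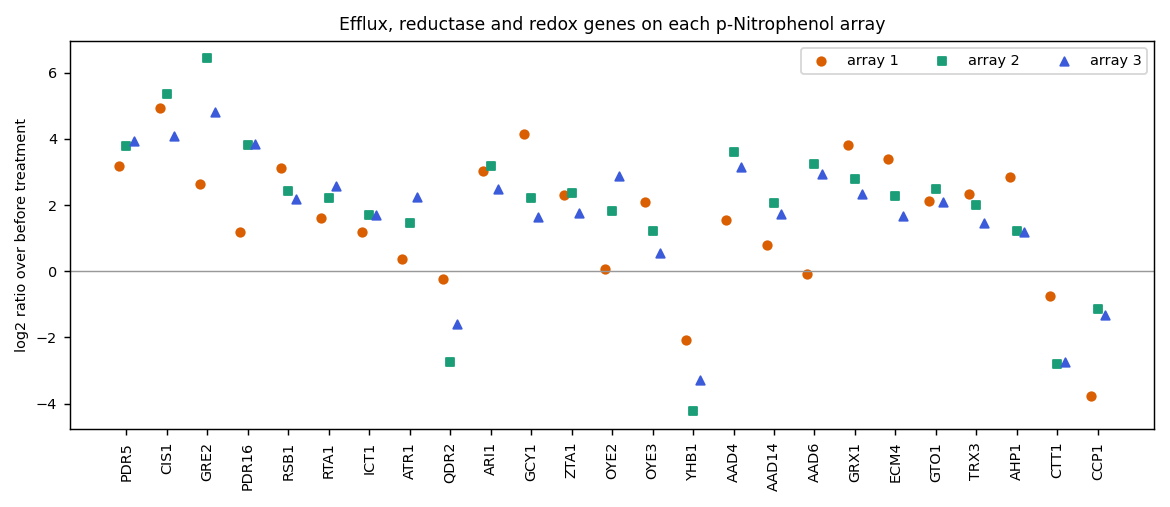
Log2 ratio over before treatment (vertical) of efflux, reductase and redox genes on each p-Nitrophenol array; 1 point is 1 array. PDR5, CIS1, RSB1, ARI1 and ZTA1 are high on all 3 arrays, YHB1 and CCP1 are low on all 3, and PDR16, OYE2 and AAD6 are lower on array 1 than on the other arrays.

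Thiol-based defences rose in part, while 2 of 6 catalase, superoxide dismutase and related genes were lower and none higher. GRX1, a glutaredoxin, had 3.81, 2.78 and 2.33 (mean 2.98 ± 0.33; adjusted p = 0.000639). ECM4 and GTO1, omega-class glutathione transferases, averaged 2.45 ± 0.36 and 2.23 ± 0.44. TRX3, the mitochondrial thioredoxin, had 2.33, 2.00 and 1.45 (mean 1.93 ± 0.28). AHP1, a thiol peroxidase, had 2.84, 1.21 and 1.19 (adjusted p = 0.00792). Over the lists, 5 of 11 thioredoxin and peroxiredoxin genes were higher (3, 2 and 3 without each array), and of 20 glutathione and glutaredoxin genes 7 were higher and 2 lower (5, 5 and 4 higher without each array). Neither TRR1, the cytosolic thioredoxin reductase, at -1.35, -0.77 and -0.73 (adjusted p = 0.173), nor SRX1, sulfiredoxin, at -0.32 and -0.16 on 2 arrays (adjusted p = 0.636), was higher. CCP1, the mitochondrial cytochrome c peroxidase, fell, with -3.76, -1.13 and -1.31 (mean -2.07 ± 0.47; adjusted p = 0.0136). CTT1, the cytosolic catalase and a usual marker of general stress, was lower at -0.75, -2.82 and -2.75 (adjusted p = 0.0259) and did not pass without array 2 or 3 (0.131 and 0.132).

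Proteasome genes were higher in part, by moderate amounts. All 14 genes of the proteolytic core had positive means and 5 were called (3, 1 and 3 without each array), with medians of 1.10, 0.94 and 0.84 on the 3 arrays. Of 19 genes of the regulatory particle 18 had positive means and 7 were called (5, 2 and 2 without each array), with medians of 0.75, 0.72 and 0.87. SCL1, a core subunit, had 2.75, 1.58 and 1.12 (mean 1.82 ± 0.35; adjusted p = 0.00594). RPN12, a lid subunit, had 1.74, 1.58 and 1.58 (mean 1.63 ± 0.23; adjusted p = 0.00187). RPN4, the transcription factor of proteasome genes, had 0.33, 2.02 and 1.62 (adjusted p = 0.0245) and lost its call without array 2 or 3 (0.153 and 0.128).

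Of 21 chaperone genes of the Hsp70 and Hsp90 systems 3, or 14.3%, were higher and 4, or 19%, lower. The shares of all genes tested were 13% and 11.9%. Of 11 genes listed together with small heat shock proteins and Hsp104, 5 were higher and none lower (4, 0 and 0 higher without each array). Of those 5, 3 were HSP32, SNO4 and HSP33, which are neither small heat shock proteins nor Hsp104. These 3 are close relatives of each other whose signals may overlap. They were measured on arrays 2 and 3 alone, with means of 2.68, 2.49 and 2.05. SSB2, a ribosome-bound Hsp70, had -4.17, -3.56 and -4.03 (mean -3.92 ± 0.63; adjusted p = 0.00341), and SSZ1, its partner at the ribosome, averaged -2.07 ± 0.44. SBA1, the Hsp90 co-chaperone p23, had 2.38, 1.17 and 0.87 (mean 1.47 ± 0.32). HSP26, a small heat shock protein, had 5.93, -0.92 and -1.14, high on array 1 and negative on the other arrays (adjusted p = 0.434). The heat-inducible SSA4 was lower, at -0.48, -0.96 and -1.32 (adjusted p = 0.0314, with 0.131 and 0.203 without array 2 or 3).

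Autophagy genes were higher in part: 9 of 31 passed and none were lower (7, 3 and 3 higher without each array), with medians of 0.99, 0.77 and 0.73. ATG8, the ubiquitin-like protein of autophagosome membranes, had 3.04, 3.11 and 2.25 (mean 2.80 ± 0.53; adjusted p = 0.00564). ATG40, a receptor for autophagy of the endoplasmic reticulum, had 3.29, 2.56 and 1.66 (mean 2.51 ± 0.34; adjusted p = 0.00204). Both lay above 1.6 on every array.

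The general stress genes differed between arrays. The 28 genes had a median of 3.02 on array 1, against 0.08 and -0.02 on arrays 2 and 3, and 8 were higher and 1 lower. Without array 1, 4 were higher and 2 lower, and without array 2 or 3 5 were higher. TMA10, a ribosome-associated stress protein, had 3.86, -0.31 and -0.21, and RTN2, a reticulon, had 4.19, -1.27 and -0.80. These genes were raised on array 1 and not on the others, and neither passed (adjusted p = 0.458 and 0.59). Both are named here after their values were seen. A few members were high on all 3 arrays. GPG1, a proposed partner of the G protein Gpa2, had 6.06, 2.17 and 3.42 (mean 3.88 ± 0.56; adjusted p = 0.00197). DDR48, a hydrophilic stress protein, had 3.38, 2.16 and 3.24 (mean 2.93 ± 0.29; adjusted p = 0.000429), and MOH1, a gene of stationary phase, averaged 2.79 ± 0.41. HSP12, a membrane-stabilising stress protein, had 4.45, 1.50 and 1.82, and DDR2 had 4.0, 2.53 and 2.95. Without array 1 neither passed (adjusted p = 0.0647 for HSP12 and 0.0575 for DDR2).

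Reserve carbohydrate genes showed the same division. The 12 glycogen genes had medians of 0.94, -1.44 and -1.45, only 1 of the 10 measured on 3 arrays kept 1 sign, and none passed. GPH1, glycogen phosphorylase, had 2.04, -1.77 and -2.09, and GLC3, the branching enzyme, had 2.02, -1.44 and -2.12. Both were raised on array 1 and lowered on arrays 2 and 3. None of 10 trehalose genes and none of 17 hexose transporter genes passed, and their medians were 0.74 and 0.51 on array 1, against -0.81 and -0.42 on array 2 and -0.83 and -0.44 on array 3. Without array 1, 2 glycogen genes, 1 trehalose gene and 2 hexose transporter genes were lower. The median of the general stress genes over the 3 arrays together, 0.996, lay near that of none of them. What set array 1 apart was not tested.

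**Figure D3:**
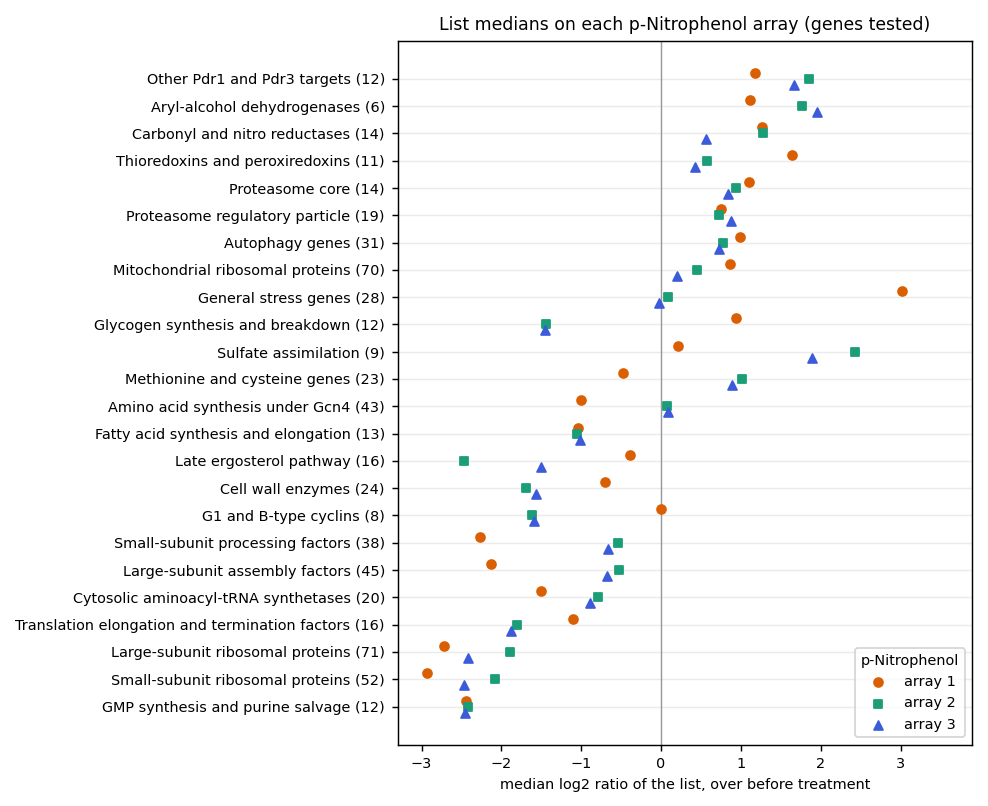
Median log2 ratio over before treatment (horizontal) of each gene list on p-Nitrophenol arrays 1, 2 and 3, with the number of genes tested in brackets. Ribosomal protein, GMP and proteasome lists have medians of 1 sign on all arrays, while the general stress list stands at 3.02 on array 1 and near 0 on arrays 2 and 3, and the glycogen list changes sign.

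Among the falls, the ribosomal protein genes gave the highest counts of all lists examined. Of 71 large-subunit genes 54 were lower and none higher (28, 31 and 28 without each array), with medians of -2.71, -1.89 and -2.42. Of 52 small-subunit genes 40 were lower (25, 31 and 26 without each array), with medians of -2.93, -2.08 and -2.47. These are 76.1% and 76.9% of the lists, beside 11.9% of all genes tested. Every one of these 123 genes had a negative mean, and of those measured on 3 arrays 66 of 67 and 49 of 51 had 1 sign. RPL4A and its duplicate RPL4B averaged -4.27 ± 0.28 and -4.18 ± 0.35. RPL5, which carries the 5S RNA, had -5.15, -3.84 and -4.30 (adjusted p = 0.00135), and ASC1, a scaffold on the small subunit, had -4.77, -4.0 and -2.97. The smallest fall was that of RPS30B, at -1.40, 0.08 and 0.14 (adjusted p = 0.624), named here after its values were seen. Most ribosomal proteins have near-identical duplicates whose signals may overlap.

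Genes of ribosome assembly fell in part, with lower medians on array 1 than on the others. Of 38 small-subunit processing factors 14 were lower (8, 8 and 11 without each array), with medians of -2.27, -0.54 and -0.67, and of 45 large-subunit assembly factors 16 were lower (10, 5 and 7 without each array), with medians of -2.14, -0.53 and -0.68. NOP1, the methyltransferase fibrillarin, had -3.81, -4.18 and -3.13 (mean -3.71 ± 0.30; adjusted p = 0.000424). NSR1, nucleolin, had -6.64, -3.52 and -3.40; the array 1 value sits at the lowest ratio the table holds, so it is a bound. BRX1, an early factor of the large subunit, averaged -3.26 ± 0.43. Among 14 RNA polymerase I genes 5 were lower and 1 higher; the 5 lower ones had no value on array 1, so without array 2 or 3 they could not be tested. RPA135, its second-largest subunit, had -4.84 and -2.39 on arrays 2 and 3, and RPA190, the largest, had -1.89 and -1.95. RRN3, which brings the polymerase to its promoter, went the other way at 2.06, 1.98 and 1.57 (mean 1.87 ± 0.26; adjusted p = 0.00204). Of 19 RNA polymerase III genes 2, or 10.5%, were lower (0, 0 and 1 without each array), beside 11.9% of all genes tested.

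The rest of the translation apparatus followed in part. Of 16 elongation and termination genes 10 were lower (9, 5 and 5 without each array), led by YEF3, the fungal elongation factor eEF3, at -4.99, -2.84 and -3.49 (adjusted p = 0.00355), and EFT2, elongation factor eEF2, at -3.94, -3.37 and -3.40. Of 20 cytosolic aminoacyl-tRNA synthetase genes 10 were lower (6, 7 and 5 without each array), led by DED81 for asparagine at -3.41, -2.21 and -2.29. Of 26 initiation factor genes 9 were lower and 1 higher. SUI1, initiation factor eIF1, which controls start codon choice, was the one that was higher, at 1.28, 2.01 and 1.99 (mean 1.76 ± 0.36; adjusted p = 0.00807, with 0.0525 and 0.0534 without array 2 or 3). Of 70 genes of the mitochondrial ribosome 13, or 18.6%, were higher and 1 lower (4, 3 and 5 higher without each array), with medians of 0.87, 0.45 and 0.21.

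Genes around GMP synthesis were lower, with nearly equal medians on the 3 arrays. The 12 genes of GMP synthesis and purine salvage had medians of -2.44, -2.41 and -2.46 on the 3 arrays, and 8 were lower and 1 higher (8, 7 and 7 lower without each array). GUA1, GMP synthetase, had -5.56, -4.14 and -4.34 (mean -4.68 ± 0.35; adjusted p = 0.000224). IMD2, an inosine monophosphate dehydrogenase, had -3.77, -3.93 and -4.16 (mean -3.95 ± 0.38; adjusted p = 0.0006). HPT1, the salvage enzyme for hypoxanthine and guanine, had -2.40, -3.70 and -4.06. All values of these genes were below -2. IMD3, a close relative of IMD2, averaged -2.72 ± 0.24, and FUR1, which salvages uracil, averaged -2.97 ± 0.36. Of 18 genes of purine synthesis 8 were lower (10, 4 and 3 without each array), among them ADE6 at -3.48, -2.87 and -3.39 and ADE17 at -0.86, -4.26 and -3.80. XPT1, which salvages xanthine, was the member that was higher, at 1.15, 1.61 and 1.05 (adjusted p = 0.0136, with 0.0892 and 0.0548 without array 2 or 3).

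Pyrimidine genes moved apart from each other. URA1, dihydroorotate dehydrogenase, which makes orotate, had 2.69, 3.01 and 2.36 (mean 2.69 ± 0.28; adjusted p = 0.000646). URA7, CTP synthase, had -3.62 and -2.73 on arrays 2 and 3 (mean -3.17 ± 0.37; adjusted p = 0.00166). URA10 and URA5 encode the 2 orotate phosphoribosyltransferases. URA10 had 3.63, 2.26 and 1.68 (adjusted p = 0.0455, and between 0.0822 and 0.194 without each array), and URA5 had -1.50, -1.07 and -1.69 (adjusted p = 0.0152, but 0.0506 and 0.0883 without array 1 or 3). URA4, dihydroorotase, had -0.01 and 0.32 and did not pass (adjusted p = 0.849). URA1 and URA7 thus had opposite signs on p-Nitrophenol arrays 2 and 3, the only p-Nitrophenol arrays that measured both. After m-Nitrophenol and o-Nitrophenol, both genes were negative on every array that measured them.

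**Figure D4:**
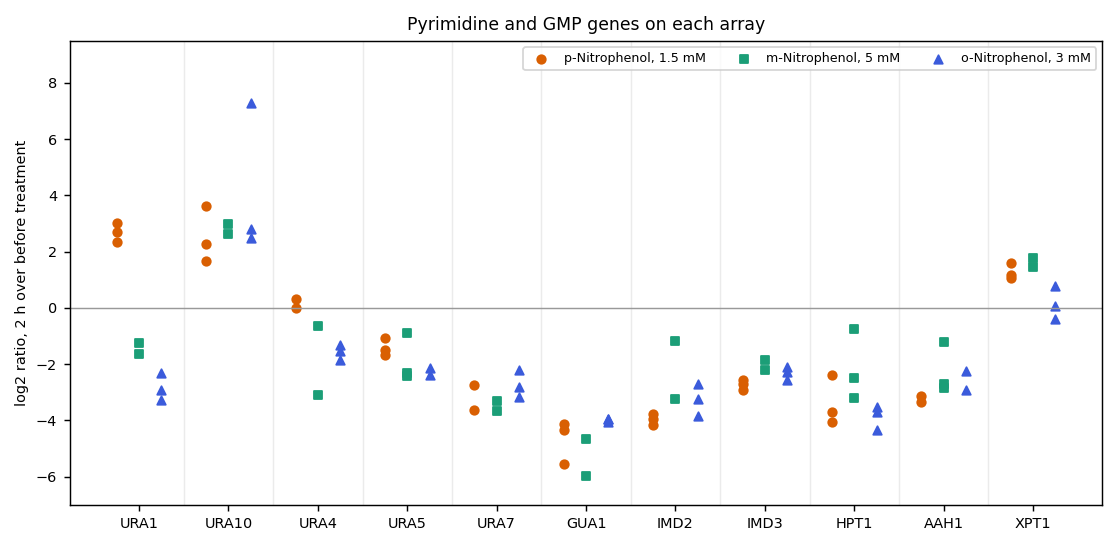
Log2 ratio over before treatment (vertical) of pyrimidine and GMP genes on each array of p-Nitrophenol (1.5 mM), m-Nitrophenol (5 mM) and o-Nitrophenol (3 mM); 1 point is 1 array, and arrays without a value have no point. The 3 p-Nitrophenol arrays of URA1 lie between 2.36 and 3.01 while all arrays of the other isomers lie below 0, and GUA1 lies below -3.9 in all groups.

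Genes of division and DNA precursors fell in part. Of 8 cyclin genes 4 were lower (5, 2 and 2 without each array): CLN3, a G1 cyclin, had -1.70, -4.85 and -3.92, CLB1, a mitotic cyclin, had -1.03, -1.99 and -3.04, and CLN2 and CLB2, measured on arrays 2 and 3, averaged -3.05 ± 0.34 and -2.77 ± 0.47. RNR1, the large subunit of ribonucleotide reductase, had -3.61 and -3.59 on arrays 2 and 3 (adjusted p = 0.000768). Of 9 histone genes HTB2, at -1.69, -3.25 and -2.67, and HHO1, at -2.23 and -1.04 on 2 arrays, were lower (3, 1 and 1 without each array). Of 31 genes of the replication machinery 3, or 9.7%, were higher and 2, or 6.5%, lower, beside 13% and 11.9% of all genes tested. Without each array 4, 1 and 1 were higher and none lower.

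Sterol, fatty acid and wall genes were lower in part. Of 16 genes of the late ergosterol pathway 9 were lower and none higher (12, 4 and 4 without each array), with medians of -0.39, -2.47 and -1.50. ERG11, the demethylase that azole drugs inhibit, had -3.92, -2.62 and -1.90 (mean -2.81 ± 0.38; adjusted p = 0.00145). ERG2, the sterol isomerase, had -2.09, -2.39 and -2.57 (mean -2.35 ± 0.26; adjusted p = 0.000639). ERG3, the C-5 desaturase, had -0.65, -4.70 and -3.51, with array 1 far from the others, and lost its call without array 2 or 3 (adjusted p = 0.0765 and 0.0626). Of 13 fatty acid genes 6 were lower (6, 2 and 3 without each array), led by the elongases ELO3, at -5.93 and -3.80 on arrays 2 and 3, and ELO2, at -3.80, -3.11 and -2.60. Of 20 phospholipid genes 4, or 20%, were higher beside 13% of all genes tested, and none lower (5, 2 and 3 higher without each array). They were led by OPI3, the methyltransferase that makes phosphatidylcholine, at 3.02, 2.39 and 2.18 (mean 2.53 ± 0.39; adjusted p = 0.00233), and INO4, a transcription factor of phospholipid genes, at 1.24, 2.66 and 1.92.

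The gene with the largest fall on the array was SRL1, a wall mannoprotein, with -5.53, -5.85 and -5.64 (mean -5.67 ± 0.25; adjusted p = 9.06e-06). Its 3 values lay within 0.4 of each other. Of 24 wall enzymes 14 were lower and none higher (15, 9 and 9 without each array). GAS1 and GAS3, of the family that elongates beta-glucan, had -4.23, -2.44 and -2.79, and -4.16, -3.27 and -4.05. SCW10, of a glucanase family, had -3.46, -4.16 and -4.0, and SIM1, of the SUN family, had -2.57, -5.33 and -3.79. Of 22 mannoproteins 9, or 40.9%, were lower and 3, or 13.6%, higher, beside 11.9% and 13% of all genes tested. Without each array 9, 8 and 9 were lower, and 1, 1 and 1 higher. TIR1 fell, at -2.29, -4.79 and -5.0, and SPS100, known from spore walls, rose, at 3.22, 1.92 and 1.32 (mean 2.15 ± 0.35; adjusted p = 0.00348).

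Mating and phosphate genes were lower in part. SAG1, the alpha-agglutinin by which alpha cells adhere to mates, had -4.17, -3.35 and -3.68 (mean -3.73 ± 0.36; adjusted p = 0.000424), and MF(ALPHA)2, an alpha-factor gene, had -4.10 and -4.67 on arrays 2 and 3. Of 19 mating genes 6 were lower and 1 higher, and without each array 5 of 19, 1 of 13 and 2 of 13 that could be tested were lower. Of 24 phosphate genes 10 were lower and 1 higher (11, 5 and 5 lower without each array). Among the lower were PHO84, the high-affinity phosphate transporter, at -1.39, -3.95 and -3.31 (mean -2.88 ± 0.42), and PHO3, an acid phosphatase, at -1.53, -4.34 and -3.38. PHO3 is counted with the thiamine genes too. Of 12 polyamine genes 4 were lower and 1 higher (5, 2 and 2 lower without each array). OAZ1, the antizyme that lowers polyamine synthesis, was the higher one at 1.85, 2.87 and 2.60 (mean 2.44 ± 0.40; adjusted p = 0.00289), while the exporter TPO2 was lower at -0.88, -3.95 and -2.96.

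Sulfur genes lay higher on arrays 2 and 3 than on array 1. The 9 genes of sulfate assimilation had medians of 0.22, 2.43 and 1.89, and 3 were higher (3, 0 and 0 without each array). MET17, which builds homocysteine from sulfide, had 0.47, 3.76 and 3.50 (adjusted p = 0.0188, and 0.115 and 0.108 without array 2 or 3). STR3, cystathionine beta-lyase, had 4.01 and 5.34 on arrays 2 and 3 (mean 4.68 ± 0.64; adjusted p = 0.0024). In the list of amino acid synthesis under Gcn4, ARG4, argininosuccinate lyase, had -0.37, 4.07 and 4.11, and CPA1, of carbamoyl phosphate synthase, had -0.35, 3.89 and 3.92. Each passed with all arrays (adjusted p = 0.0306 and 0.0332), and neither passed without array 2 (0.166 and 0.186) or 3 (0.171 and 0.19). Among all 43 genes of that list, 4, or 9.3%, were higher and 7, or 16.3%, lower, beside 13% and 11.9% of all genes tested. Without each array 9, 0 and 0 were higher. ILV1, threonine deaminase, was among the lower at -3.58, -2.94 and -1.40. CHA1, the catabolic serine and threonine deaminase, was higher at 2.80, 3.89 and 3.12 (adjusted p = 0.0243), and without each array in turn its adjusted p was between 0.065 and 0.107.

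Vitamin B6 genes were higher in part: 5 of 9 passed and all 9 means were positive (2, 4 and 2 without each array). SNZ1, a subunit of the pyridoxal phosphate synthase, had 2.60, 4.66 and 4.03 (mean 3.76 ± 0.41; adjusted p = 0.000639), and SNO1, its glutaminase partner, had 0.96, 3.91 and 4.22 (mean 3.03 ± 0.56; adjusted p = 0.00792). RIB4, lumazine synthase of riboflavin synthesis, had 4.25, 2.04 and 1.75 (mean 2.68 ± 0.41; adjusted p = 0.00237). All values but the first of SNO1 lay above 1.7.

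Iron genes moved in both directions. Of 18 genes of reductive uptake and iron control 8, or 44.4%, were higher and 3, or 16.7%, lower (5, 3 and 3 higher without each array). The shares of all genes tested were 13% and 11.9%. TIS11, which destroys mRNAs of iron-using proteins when iron is short, had 2.35, 2.14 and 2.77 (mean 2.42 ± 0.49; adjusted p = 0.00786), and CCC2, the copper ATPase that loads the iron oxidase, averaged 1.74 ± 0.25. FRE1, the surface reductase, had -2.58, -1.51 and -1.14, and CCC1, which stores iron in the vacuole, had -2.46, -1.22 and -1.32. Both of these fell. Of 33 genes of the respiratory chain and ATP synthase 3, or 9.1%, were higher and 8, or 24.2%, lower (6, 5 and 4 lower without each array). CYT1, cytochrome c1, had -1.82, -2.23 and -1.86, while ATP15, the epsilon subunit of ATP synthase, had 1.72, 2.65 and 1.72 (mean 2.03 ± 0.38; adjusted p = 0.00551). Of 25 glycolysis and fermentation genes 2, or 8%, were lower, beside 11.9% of all genes tested. They were PFK2 and ADH4, at means of -1.65 and -1.64.

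Of 7 SNARE genes of exocytosis and their partners, 2 were higher and none lower (1, 2 and 2 higher without each array). SNC2, a vesicle SNARE of secretion, had 4.11, 3.38 and 3.02 (mean 3.50 ± 0.27; adjusted p = 0.000174), while SNC1, its paralog, had 1.18, 0.96 and 0.14 and did not pass (adjusted p = 0.0769). SSO1, a plasma membrane SNARE, had 1.89, 0.75 and 0.72 (adjusted p = 0.0162, with 0.0602 without array 1). Several of the 25 largest rises fitted no list. FMP23, a mitochondrial protein, had 3.71, 3.29 and 2.41. TMT1, a methyltransferase for trans-aconitate, had 1.69, 4.02 and 3.49. All 3 arrays lay above 1.6 for both genes. ECM13 had 1.23, 3.63 and 3.10, and ARO5 had 2.10, 3.58 and 3.26. OSI1, measured on arrays 2 and 3 alone and so outside the ranking, had the largest mean of any standard-named gene that passed on 2 arrays, 6.04 and 6.83 (mean 6.43 ± 0.39; adjusted p = 0.000299); it is named here after its values were seen.

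**Figure D5:**
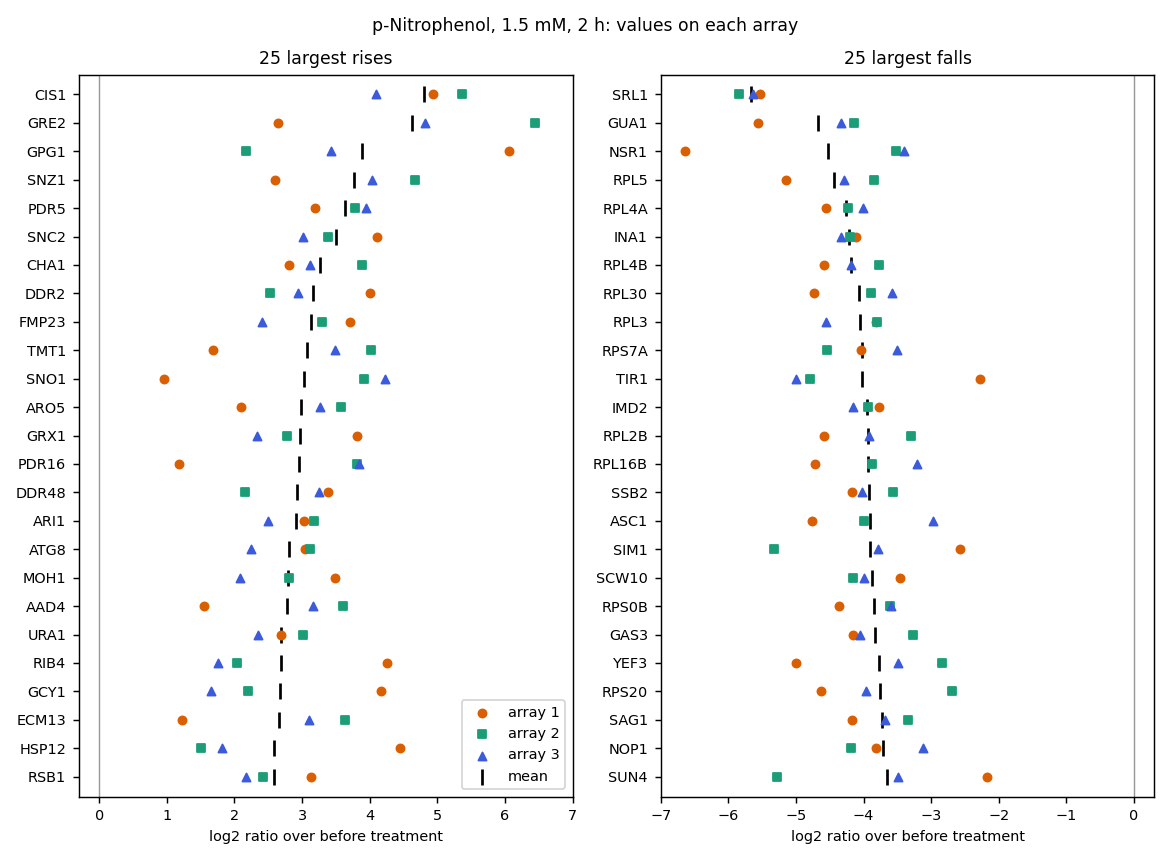
Log2 ratio over before treatment (horizontal) of the 25 genes with the largest mean rise (left) and fall (right) after p-Nitrophenol among named genes with 1 sign on 3 arrays; points are arrays and the bar is the mean. SRL1, PDR5, RPL4A and INA1 have nearly equal values on all arrays, while GPG1, SNO1, PDR16 and TIR1 have array 1 far from arrays 2 and 3.

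The other isomers were given at other doses, so a difference between isomers is also a difference in dose. In the same model, p-Nitrophenol was set against the mean of m-Nitrophenol and o-Nitrophenol, and the median 95% interval of that difference reached 0.98 to either side. Of 5096 genes, 1 passed, which is 0.0196%. With the replicate number as a block, 1 was higher and 7 were lower. At an unadjusted p under 0.05, 385 genes were higher and 239 lower. The gene that passed was URA1. Its log2 ratios were 2.69, 3.01 and 2.36 after p-Nitrophenol, against -1.64 and -1.26 on the 2 m-Nitrophenol arrays that measured it and -3.28, -2.31 and -2.92 after o-Nitrophenol. The groups did not overlap, and the difference was 4.83 ± 0.35 (SE; adjusted p = 0.000807). URA7, the CTP synthase gene, lay at -3.62 and -2.73 after p-Nitrophenol, against -3.31 and -3.66 after m-Nitrophenol and -3.19, -2.83 and -2.21 after o-Nitrophenol (difference -0.06; adjusted p = 0.962).

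Other leading genes did not pass this test. PDR5 had 3.20, 3.78 and 3.95 after p-Nitrophenol, against 3.77, 3.10 and 3.67 after m-Nitrophenol and -1.04, 1.08 and 1.19 after o-Nitrophenol. SNZ1 had 2.60, 4.66 and 4.03, against 3.95, 2.36 and 3.88 after m-Nitrophenol and 0.40, 0.36 and 0.01 after o-Nitrophenol. For both, the p-Nitrophenol arrays overlapped those of m-Nitrophenol and lay above those of o-Nitrophenol, and the difference from the mean of the other isomers did not pass (adjusted p = 0.274 and 0.248).

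The count of isomer differences depended on the arrays numbered 1, which measured fewer genes than the other arrays. The first m-Nitrophenol array measured 1970 genes, against 5333 and 5343 on the others. The first o-Nitrophenol array measured 3797, against 5316 and 5155. For the genes they measured, both entered the variance behind each SE and p-value. Leaving out either of them alone gave 1 gene higher and 0 lower. Without the first array of each isomer, 253 genes were higher and 230 lower after p-Nitrophenol than after the other isomers, on 2 arrays each. The genes with the largest differences, named after their values were seen, included stress genes. HSP26 had -0.92 and -1.14 on p-Nitrophenol arrays 2 and 3, against 4.70 and 4.23 after m-Nitrophenol and 5.25 on each array of o-Nitrophenol, while on p-Nitrophenol array 1 it had 5.93. HXK1, hexokinase 1, had -1.84 and -1.91 on arrays 2 and 3, against 1.98 and 1.28 after m-Nitrophenol and 3.42 and 2.75 after o-Nitrophenol, and 1.81 on p-Nitrophenol array 1. Arrays 2 and 3 lay below both other isomers and array 1 did not. The general stress list had medians of 3.02, 0.08 and -0.02 after p-Nitrophenol, against 1.93, 1.71 and 1.75 after m-Nitrophenol and 4.66, 2.90 and 2.18 after o-Nitrophenol. On the other side, CPA1 had 3.89 and 3.92 on p-Nitrophenol arrays 2 and 3, against 1.18 and 1.44 after m-Nitrophenol and 1.63 and 1.21 after o-Nitrophenol.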

How the data were processed

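The deposited table holds log2 ratios, 1 column per scan, read here as exposed (Cy5) over before-treatment (Cy3) cells, a direction that no source used here states outright. Per the labels, the authors normalised them by LOWESS on spots with flag 0 and merged high-power and low-power scans in GeneSpring; the merged values were not used here, and no source used here gives a background correction. Of 6912 probes, 5513 had 1 gene symbol and 1399 none, giving 5365 genes, of which 5360 matched RefSeq R64 names. Both scans of an array were averaged for each probe, and then the probes of a gene. Intensities and depth are unknown, so the number of arrays limits precision. limma 3.58.1 (R 4.3.3) fitted 3 isomer means to 9 arrays for genes with values on at least 2 arrays per isomer (6 residual degrees of freedom). The variance of a gene was pooled over the 3 isomers and moderated towards that of other genes (4.4 prior degrees of freedom). Each SE, interval and p-value rests on that variance. The p-values were adjusted by Benjamini-Hochberg at a threshold of 0.05. The fit was also run on simulated data, and no result given here rests on that run. Alternatives changed the scans, normalisation, filter, arrays and replicate numbers. Genes named are the 25 largest rises and falls with 1 sign on 3 arrays, up to 6 called members per direction of a list, any member of a list of up to 15 genes, and isomer differences without overlap; others are said to be chosen after their values were seen. The members and all 68 gene lists were chosen with earlier results of these data known.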

Additional observations from a re-analysis of the deposited data

Results flagged for a closer look

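URA1 was picked out because its effect differed between isomers by a test of the difference itself: the mean after p-Nitrophenol minus the mean of m-Nitrophenol and o-Nitrophenol was 4.83 on the log2 scale (adjusted p = 0.000807). All 3 p-Nitrophenol arrays were above 0 and all 5 arrays of the other isomers that measured URA1 were below 0. The doses differed between the isomers (1.5 mM, 5 mM and 3 mM), and the part of dose in the difference cannot be told apart from that of the isomer.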

How the results depend on the processing

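The 661 higher and 606 lower genes stayed within 1.5 times of these counts with either scan alone, centring, quantile normalisation, other filters, single-probe genes, the p-Nitrophenol arrays alone and the replicate block (832 and 722). Without p-Nitrophenol array 1, 2 or 3 in turn they ranged from 207 to 484 and from 276 to 479, and fewer genes could be tested without array 2 or 3. Without the arrays numbered 1 they were 1124 and 979. In fits added after seeing the data, leaving out 1 m-Nitrophenol or o-Nitrophenol array gave 274 to 911 and 223 to 784, with as few as 1959 genes tested. For p-Nitrophenol minus the other isomers, 1 gene was higher and 0 lower. With low-power scans alone the counts were 2 and 12 (URA1 was not tested there), with quantile normalisation 1 lower, with the replicate block 7 lower, without the arrays numbered 1 253 and 230, and without single p-Nitrophenol arrays 1 to 5 and 0 to 22. Without m-Nitrophenol array 2 or 3, where URA1 could not be tested since the first array has no value for it, they were 0 higher. The causes were not tested beyond the fewer genes and arrays. The isomers share replicate numbers. The deviations of same-numbered arrays correlated between 0.117 and 0.366 for pairs that include p-Nitrophenol, and between 0.061 and 0.215 for m-Nitrophenol with o-Nitrophenol. Arrays of different isomers with different numbers correlated between -0.351 and 0.226, mostly below 0. The p-Nitrophenol array 3 correlated as much with m-Nitrophenol array 2 (0.119) as with array 3 (0.117). Over all 3 isomers in the fit not every same-numbered pair was over 0.1, so the arrays were left unpaired, and the replicate block was run as an alternative. Named genes that did not pass were not among the 320 genes checked for direction, and some turned without p-Nitrophenol array 1. The mean of TMA10 went from 1.11 to -0.26, and that of RTN2 from 0.71 to -1.04. The largest rises and falls were chosen with 1 sign on 3 arrays, so leaving out 1 of these could not turn them. Among all called genes measured on 3 arrays, 585 of 590 higher and 522 of 524 lower ones also had 1 sign. None of the 320 genes, all called and named or eligible, changed direction under these settings. For a left-out p-Nitrophenol array this was nearly fixed by the choice of called genes, so it says little about their stability. Of those tested, 240 of 317, 159 of 279 and 170 of 276 kept their call without p-Nitrophenol array 1, 2 and 3, and 302 of 320 did with centring, which moved the median of all genes to 0.005 from 0.10. Without intensities, dim and saturated spots could not be set apart.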

Other observations

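Of 27 genes for amino acid permeases and catabolism 7, or 25.9%, were lower and 3, or 11.1%, higher (3, 2 and 3 lower without each array). The shares of all genes tested were 11.9% and 13%. Among the lower were AGP1, a broad amino acid permease, at -1.87, -2.55 and -2.20 (mean -2.20 ± 0.29; adjusted p = 0.00177), and TAT2, the tryptophan permease, at -2.68, -0.97 and -1.46 (mean -1.71 ± 0.36). Of 8 siderophore uptake genes 3 were higher (1 without any one array), among them the transporter ARN1 at 2.12, 1.23 and 0.99 (mean 1.45 ± 0.30; adjusted p = 0.00798). Of 9 copper genes 3 were higher (0, 0 and 1 without each array), and 2 of them were CUP1-1 and CUP1-2, identical copies of a metallothionein gene, whose adjusted p was 0.037 and 0.0124 with all arrays and 0.19 and 0.0609 without array 1.

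The remaining lists changed in few members or in both directions, beside 13% of all genes higher and 11.9% lower, and most counts shrank without an array, where fewer genes could be tested. Of 18 ubiquitin genes 5 were higher and 1 lower (3, 0 and 1 higher without each array), of 12 proteasome regulators 4 were higher (1, 0 and 0), and of 8 vacuolar protease genes 2 were higher (1, 0 and 1). Of 23 methionine and cysteine genes 3 were higher and 1 lower (4, 0 and 0 higher), and of 11 beta-oxidation genes 2 were higher and 1 lower (0 in either direction without any one array). The 4 H/ACA genes, of RNA pseudouridylation, had medians of -3.64, -0.84 and -0.60, and 2 were lower (1, 2 and 2). Of 9 early sterol genes 4 were lower (4, 1 and 1). Among lists with 1 higher and 3 lower genes, the lower counts without each array were 2, 1 and 1 for 19 sphingolipid genes, 2, 1 and 2 for 12 pentose phosphate genes, 3, 2 and 2 for 19 TCA cycle genes, 2, 1 and 2 for 24 ER folding genes, and 1, 0 and 1 for 13 calcineurin genes. Of 17 thiamine genes 1 was higher and 2 lower (2, 1 and 1 lower), of 13 proton pump and weak acid genes 2 were lower (3, 2 and 1), and of 11 meiosis genes 1 was higher and 1 lower (2, 0 and 0 lower).

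In the RefSeq R64 gene order, 4321 pairs of neighbouring genes were both tested, and as a description across pairs that share arrays, the means of neighbours correlated at 0.193 for 1084 divergent pairs, 0.075 for 2080 tandem pairs and 0.019 for 1157 convergent pairs. A share of pairs is not comparable with the 13% of single genes called higher, and the share that unrelated genes would give was not computed. Both neighbours were higher in 86 pairs, or 1.99%, and both lower in 72, or 1.67%. They were both higher in 2.31% of divergent, 2.07% of tandem and 1.56% of convergent pairs.

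The divergent pairs with the largest sums included several of the leading genes. PDR5 (3.64) lies next to ATG40 (2.51), SNC2 (3.50) next to the pump gene PDR10 (1.27), FMP23 (3.13) next to ZTA1 (2.15), SNZ1 (3.76) next to SNO1 (3.03), OPI3 (2.53) next to MOG1 (1.86) and GCY1 (2.67) next to RIO1 (1.68). MOG1, a factor of nuclear import, had 1.88, 1.36 and 2.33 (adjusted p = 0.0685 without array 3), and RIO1, a kinase of ribosome maturation, had 1.23, 2.35 and 1.48 (adjusted p = 0.0523 without array 2). Among the falls, SRL1 (-5.67) lies next to ENV9 (-1.99), and RPL30 (-4.07) next to RPL24A (-2.88) (adjusted p = 0.0525 without array 2). These pairs were chosen after their values were seen, and whether partners share control was not tested.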
